A study of Mus musculus with 11 samples.

Results

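Closed neural tube and open neuroepithelium of mouse embryos at E9.5 were compared across genes. The comparison uses 6 of the 11 arrays of the series, 3 titled closed neural tube and 3 titled open neuroepithelium at this stage, chosen by their titles and not by measured values. Each gene was read from 1 probe set, and 13341 of 18193 genes passed the filter on low signal (a mean of at least 4.3 on the log2 scale over all arrays). Every difference below is the closed mean minus the open mean of deposited log2 signal, and its standard error (SE) comes from the fitted model.

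All embryos were C57BL/6, with no further genotype, allele or agent named in the labels. At E9.5 the tissue was loosened for 8 min in 2.5% pancreatin and 0.5% trypsin and pulled free together with the notochord that stuck to it, and at E8.5 the same was done for 5 min. Open tissue was the neuroepithelium caudal to the point where the folds had met, and closed tissue was the neural tube starting a somite's width rostral to that point and reaching the fifth- or sixth-to-last somite. At E9.5 care was taken to keep tail bud out of the open sample. Tissue was pooled by litter, with 111 embryos in the whole series, and 50 ng of RNA per sample went through a 2-cycle labelling. The labels do not say whether an open and a closed array of the same number share litters. The remaining arrays are 3 of open and 2 of closed tissue at E8.5, after the authors removed 1 of 12. Since closed tissue lies rostral to open tissue, closure and axial level differ together and cannot be told apart here. In bulk tissue a lower signal can come from fewer cells of a type or from less RNA per cell, which cannot be told apart either.

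The mouse spinal neural tube forms by folding of a flat neural plate that closes progressively towards the tail. The plate caudal to the closure point lies next to progenitors that feed both spinal cord and paraxial mesoderm, in a region rich in FGF and Wnt signals where the enzyme Cyp26a1 removes retinoic acid. Cells leaving this region meet retinoic acid made by the somites, switch on neural patterning genes under hedgehog signals from notochord and floor plate and BMP and Wnt signals from dorsal tissue, and begin to make neurons. Hox genes of higher paralogue number are switched on later and further caudally.

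The RNA of the 6 arrays was not alike. Control probe sets at both ends of Gapdh and Actb gave a 3-prime minus 5-prime value (log2, mean of both genes) of 2.20 and 2.48 for open replicates 1 and 2, of 1.14 for open replicate 3, and of 1.72, 1.44 and 1.20 for closed replicates 1 to 3. A high value of this measure accompanies shortened or degraded transcripts. Where they moved by more than 1.5 times, most counts below are therefore also given from a fit without open replicates 1 and 2. For some lists the median in that fit is given instead. In it open E9.5 is a lone array assumed to vary like the other groups. A fit with the 3-prime minus 5-prime value as a covariate was also run. Beyond these fits the part of RNA quality in each difference was not tested.

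**Figure D1:**
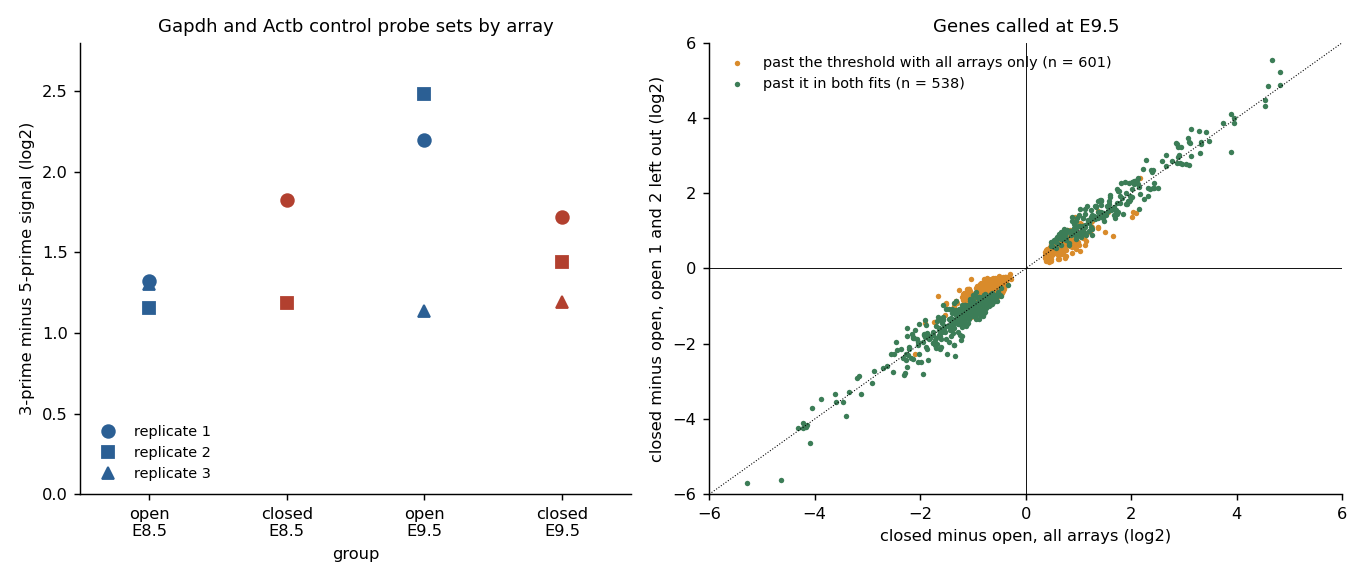
Left, 3-prime minus 5-prime signal (log2, mean of Gapdh and Actb) on each of the 11 arrays by group, with 1 point per array. Open E9.5 replicates 1 and 2 lie highest, at 2.20 and 2.48. Right, closed minus open difference (log2) of the 1139 genes past the threshold at E9.5, in the fit of all arrays (horizontal) and in the fit without those 2 arrays (vertical), where 538 remain past the threshold and all keep their sign.

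The summed signal of neural markers was strong in both tissues, and markers of neighbouring tissues were not absent. The summed linear signal of 6 neural plate and tube genes was 5570 to 6381 on the open arrays and 7204 to 8006 on the closed arrays. Both sums were mostly Cdh2 and Sox2, and Pax6 was the lowest of the 6 on each open array (6.062, 6.077 and 6.278, log2). Of 8 somite markers, 4 (Meox2, Foxc2, Uncx and Twist1) had E9.5 means below the filter value, and the sum was 218 to 240 in open and 232 to 243 in closed tissue. Presomitic mesoderm markers summed to 935 to 1582 in open and 261 to 266 in closed tissue, with Tbx6, Hes7 and Dll3 lower in closed tissue while Mesp2 and Msgn1 differed by 0.04 and -0.04. Neural crest markers summed to 378 to 413 in open and 1400 to 1518 in closed tissue, the closed sum being mostly Ednrb. Ngfr lay the other way, at 7.259, 6.811 and 7.414 on the open arrays and 6.634, 6.645 and 6.82 on the closed arrays (log2). Floor plate markers summed to 1760 to 2007 in open and 2764 to 3577 in closed tissue, and notochord markers to 1448 to 1781 and 2262 to 2768. Both sums were mostly Shh and both hold Foxa2, while the other notochord markers Chrd and Nog differed by -0.35 and 0.18. Foxa1, listed for both floor plate and hindgut, lay the other way from the floor plate sum. It read 8.623, 8.463 and 8.158 on the open arrays and 7.929, 7.565 and 7.339 on the closed arrays (log2). Hindgut markers summed to 2327 to 3463 and 737 to 921, most of it Cdx2, which caudal progenitors also express. Sox17, which defines endoderm, lay below the filter value, and Foxa1 differed by -0.80 (adjusted p = 0.0127, and up to 0.0671 without open replicate 1, closed replicate 2 or closed replicate 3, and 0.306 without open replicates 1 and 2). Trh had 0.72 (adjusted p = 0.167, and 0.0384 with replicate number within each stage as a block). Surface ectoderm markers summed to 934 to 1031 and 739 to 963, with Trp63 and Cdh1 below that value. Embryonic globin and other blood markers summed to 4905 to 7179 and 2213 to 5696, with Gata1 and Alas2 below it. Of 6 endothelial markers, 5 lay below it, and their sum was 100 to 110 in open and 115 to 143 in closed tissue. The part of these cell types in the differences described below was not tested.

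With limma, 1139 of 13341 genes (8.54%) differed at a Benjamini-Hochberg adjusted p under 0.05: 367 (2.75%) were higher and 772 (5.79%) lower in closed tissue. Open and closed arrays did not overlap for 1138 of the 1139, among them every called gene named below, against 22.5% of all tested genes. The size of a difference depends on the probe set. As the mean of a gene's probe sets, it was smaller by over 1.5 times for 56 of 213 called genes that are named or were chosen by the naming rule, of which 48 stayed past the threshold, and larger by over 1.5 times for 1, Slc2a1 (1.14). Examples on that measure are Pax6 with 1.16, Ednrb with 2.12, Spon1 with 1.40, Fgfr2 with 1.81, Nkx1-2 with -0.85, Nr6a1 with 1.06, Kbtbd11 with 1.09, Gad1 with -2.41 and Shh with 0.46, each past the threshold. Large differences lay in both directions: 65 genes were higher and 53 lower by at least 2, that is 4-fold. Among differences under 1, 187 were higher and 498 lower, and without the open arrays of high 3-prime signal 46 of the 187 and 118 of the 498 stayed past the threshold, against 374 of 454 genes of size 1 or more. Called genes numbered 603 in that fit (219 higher, 384 lower). With the 3-prime minus 5-prime value as covariate 1765 genes were called, among them 1089 of the 1139. With replicate number within each stage as a block, called the replicate block below, 2222 genes were called (16.7%; 729 or 5.46% higher, 1493 or 11.2% lower), among them all 1139. With the same number shared across stages as the block, 1155 were called (373 higher, 782 lower), among them 1055 of the 1139. The median difference over all tested genes was -0.01. A mean below the filter, where the size of a difference depends on background, was found in open tissue for 33 of the 367 higher genes and in closed tissue for 35 of the 772 lower genes.

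**Figure D2:**
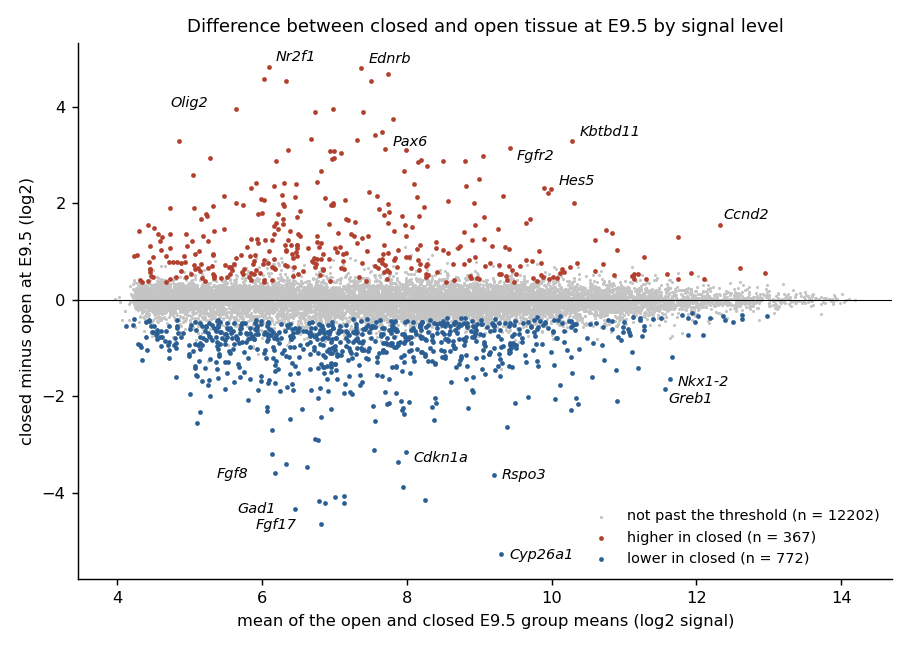
Difference between closed and open tissue at E9.5 (log2, vertical) against the mean of both group means (log2 signal, horizontal) for 13341 genes, 1 point per gene. Higher genes (367) are red, lower genes (772) blue and the rest grey, with named examples: Nr2f1 and Ednrb at the top, Cyp26a1 at the bottom, and Ccnd2, Greb1 and Nkx1-2 among genes of high signal.

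Many genes of neural progenitors were higher in closed tissue, while Sox2, Sox3 and Cdh2, expressed throughout early neural tissue, differed by 0.43, 0.36 and -0.03. Of 27 tested members of the neural progenitor list, 15 were higher and 1 lower, with a median of 0.58, against 2.75% higher and 5.79% lower of all tested genes; without open replicates 1 and 2 the counts were 10 and 1, and with the replicate block 17 and 3. Pax6, a homeobox regulator of spinal progenitors, read 6.06, 6.08 and 6.28 on the open arrays and 9.30, 9.10 and 9.42 on the closed arrays (replicates 1 to 3, log2 signal throughout). All closed arrays lay above all open arrays, and the difference was 3.13 (SE 0.16, adjusted p = 2.57e-07), or 8.78-fold. Nr2f1, an orphan nuclear receptor of the COUP-TF kind, read 3.65, 3.76 and 3.63 on the open arrays and 8.98, 8.28 and 8.26 on the closed arrays, and its relative Nr2f2 4.90, 4.98 and 5.39 against 7.52, 7.30 and 7.75. Open signal of Nr2f1 was at background level, so that its difference of 4.82 (SE 0.18) has no firm size, while that of Nr2f2 was 2.43 (SE 0.24). The differences of Sox21, a SoxB factor, and Irx3, an Iroquois homeobox factor of the intermediate neural tube, were both 2.01 (SE 0.13 and 0.16). Sox1 rose less, by 1.05 (SE 0.15), from 7.64, 7.37 and 7.83 to 8.52, 8.70 and 8.76.

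Sox2, the core neural stem cell factor, already stood at 10.99, 11.15 and 11.11 in open tissue and reached 11.58, 11.63 and 11.34 in closed tissue. Its difference of 0.43 (SE 0.09, adjusted p = 0.0117) lost the call without open replicate 1, closed replicate 1 or closed replicate 2 (adjusted p up to 0.0634), without open replicates 1 and 2 together (0.154) and with the E9.5 arrays alone (0.0548). Sox3 (0.36, adjusted p = 0.733, and 0.0273 with the replicate block), Sox11 (0.00), the neural cadherin Cdh2 (-0.03) and Notch1 (-0.12) did not pass. Zic genes divided: Zic1 was at background in open tissue (3.89, 3.83 and 3.48) and at 8.58, 8.0 and 8.37 (difference 4.58, SE 0.22) in closed tissue, whereas Zic5 fell from 10.60, 10.71 and 10.90 to 9.45, 9.84 and 9.78 (difference -1.05, SE 0.13). Zic2 had -0.55 (adjusted p = 0.324, 0.0113 with the replicate block), and -0.95 (0.00103) with the 3-prime minus 5-prime covariate.

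**Figure D3:**
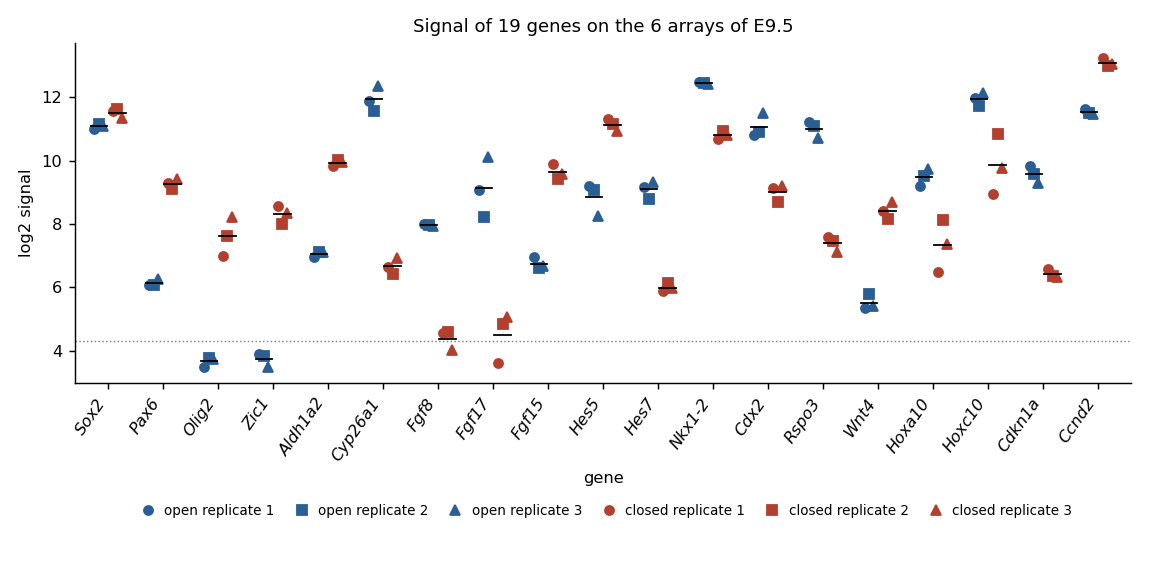
Log2 signal of 19 genes on the 6 arrays of E9.5, open arrays in blue and closed arrays in red, with a marker shape per replicate number, group means as black lines and the filter of 4.3 dotted. Groups do not overlap for any of these genes. The spread within a group is largest for Hoxc10, Fgf17, Hoxa10 and Olig2.

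Ventral and hedgehog-dependent genes were higher in closed tissue in 13 of 22 and lower in 1 (median 0.80; 9 and 0 without open replicates 1 and 2, 16 and 2 with the replicate block). Among transcription factors of ventral progenitors the gaps were wide. Olig2, which defines motor neuron progenitors, read 3.47, 3.77 and 3.75 on the open arrays and 6.99, 7.63 and 8.23 on the closed arrays (difference 3.95, SE 0.28); closed replicate 1 was the lowest of its group, and all open arrays were at background. Nkx6-1, a ventral progenitor factor, read 5.13, 4.89 and 5.04 on the open arrays and 8.48, 8.36 and 8.20 on the closed arrays, a difference of 3.33 (SE 0.16, adjusted p = 1.44e-07). Olig1 (2.59, SE 0.22) and Nkx2-2 (1.42, SE 0.19), both with open means under the filter, shared the direction. Spon1, a secreted floor plate matrix protein, rose from 5.50, 5.87 and 5.60 to 9.46, 8.65 and 8.81 (difference 3.31, SE 0.19).

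Components of the hedgehog signal itself were also compared. Scube2, which helps release the ligand from cells, had the widest gap of the list, at 5.05, 5.21 and 5.47 on the open arrays and 9.74, 9.86 and 9.74 on the closed arrays (difference 4.53, SE 0.21). The co-receptor genes Gas1 (1.04, SE 0.12) and Boc (0.96, SE 0.13) were higher in closed tissue. The ligand gene Shh stood at 10.29, 10.22 and 10.54 in open and 11.16, 10.92 and 11.18 in closed tissue, a difference of 0.74 (SE 0.13, adjusted p = 0.00292), which had adjusted p = 0.135 without open replicates 1 and 2. The receptor Ptch1 (0.26, adjusted p = 0.115) and the transcription factor Gli1 (0.73, 0.272), both induced by the pathway, passed with the replicate block (0.0182 and 0.00812), Ptch1 also with the covariate (0.00402). Smo, which transduces the signal, and Gli3 differed by -0.08 and 0.03.

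Dorsal and intermediate progenitor factors were higher in closed tissue in 10 of 18 and lower in 2 (median 0.87; 8 and 1 without open replicates 1 and 2). Pax3, a paired-box factor of the dorsal neural tube that is needed for closure in the mouse, read 8.84, 9.05 and 8.57 on the open arrays and 10.17, 9.78 and 9.77 on the closed arrays; it was present in open tissue and rose by 1.09 (SE 0.16, adjusted p = 0.000763). Msx3, whose expression is restricted to the dorsal neural tube, read 5.19, 5.04 and 4.73 on the open arrays and 7.47, 6.73 and 7.86 on the closed arrays (difference 2.37, SE 0.25). Irx5 (1.93, SE 0.28), Irx2 (1.01, SE 0.14) and Olig3 (1.43, SE 0.26), transcription factors of intermediate and dorsal domains, were higher too. Prdm8, a regulator of the PRDM family, went from background (3.99, 4.08 and 4.11) to 8.87, 8.24 and 8.70 (difference 4.54, SE 0.15). Both lower members encode signals: Bmp4 (-0.72) lost its call without open replicate 1, closed replicate 2 or closed replicate 3 (adjusted p up to 0.0635) and without open replicates 1 and 2 together (0.171), and Wnt3a (-1.07) without open replicate 1, closed replicate 1 or closed replicate 2 (up to 0.0754). The roof plate and dorsal factors Msx1 (0.30), Lmx1b (0.13) and Atoh1 (0.01) did not pass, except Msx1 with the covariate (0.50, adjusted p = 0.0346).

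In the BMP and TGF-beta pathway several of the higher members were secreted antagonists. Of 33 tested members 5 were higher and 2 lower (median 0.08; 8 and 6 with the replicate block, 5 and 1 without open replicates 1 and 2). Fst, which binds activin, read 5.07, 4.77 and 4.57 on the open arrays and 8.15, 7.81 and 7.78 on the closed arrays, a difference of 3.11 (SE 0.18, adjusted p = 5.47e-07). Bmper (2.44, SE 0.17) and Grem1 (1.37, SE 0.22, with open signal at background), which bind BMPs, were higher in closed tissue as well, and Id3, a target of BMP signalling, rose from 8.05, 7.90 and 8.82 to 10.29, 10.33 and 10.59 (difference 2.15, SE 0.25). Tgfb2, a TGF-beta ligand gene, was lower (difference -1.68, SE 0.19), and Nog and Chrd, other BMP antagonists, differed by 0.18 and -0.35 (adjusted p = 0.818 and 0.117).

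Neural crest genes were higher in closed tissue in 7 of 16 and lower in 1 (median 0.72; 9 and 3 with the replicate block, 7 and 0 without open replicates 1 and 2). Ednrb, the endothelin receptor of crest cells, read 4.98, 5.37 and 4.55 on the open arrays and 9.87, 9.71 and 9.75 on the closed arrays (difference 4.81, SE 0.21, adjusted p = 1.04e-07). Tfap2b (1.90, SE 0.29, with open signal at background), Ets1 (1.37, SE 0.25) and Sox9 (1.97, SE 0.17), transcription factors of early crest, were higher. Foxd3, an early crest factor, rose by 2.16 (SE 0.43, adjusted p = 0.00763) with adjusted p = 0.076 without open replicates 1 and 2. Sox10, expressed by migrating crest, had 0.40 (adjusted p = 0.225), and 0.62 (0.00474) as the mean of its probe sets.

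Retinoic acid pathway genes were higher in closed tissue in 9 of 23 and lower in 2 (median 0.34; lower in 4 with the replicate block). The enzymes that make and remove retinoic acid lay in opposite directions. Cyp26a1, which degrades it, had the largest difference of all tested genes, at 11.88, 11.57 and 12.37 on the open arrays and 6.63, 6.41 and 6.94 on the closed arrays. The gap of -5.28 (SE 0.24, adjusted p = 1.32e-07) corresponds to 38.7-fold, and it was -5.70 without open replicates 1 and 2. Aldh1a2, which makes it, read 6.97, 7.11 and 7.12 on the open arrays and 9.84, 10.02 and 9.95 on the closed arrays, a difference of 2.87 (SE 0.11, adjusted p = 7.04e-08).

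Because Cyp26a1 is a known retinoic acid target, the 250 bases before its start (RefSeq, GRCm38.p6, chr19:37697558-37697807, plus strand) are shown with capitals on the direct repeat that retinoic acid receptors bind.
Cyp26a1: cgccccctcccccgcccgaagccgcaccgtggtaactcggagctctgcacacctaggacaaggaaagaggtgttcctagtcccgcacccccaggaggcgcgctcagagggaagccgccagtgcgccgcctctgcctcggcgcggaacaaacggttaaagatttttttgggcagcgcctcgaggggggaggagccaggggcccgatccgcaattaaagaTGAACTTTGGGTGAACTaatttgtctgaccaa
The motif searched on both strands was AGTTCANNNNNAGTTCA, picked after the values were seen. It occurs here once, starting 32 bases before the gene start, and in 7 of 32851 promoter windows of this length (0.0213%). A match describes letters and shows no binding.

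Among receptors, Rarb, itself a retinoic acid target, read 3.95, 3.94 and 3.54 on the open arrays and 6.87, 6.51 and 6.88 on the closed arrays (difference 2.94, SE 0.25), with open signal at background. Rarg, by contrast, was lower in closed tissue (difference -1.20, SE 0.27, adjusted p = 0.0168), and lost the call without closed replicate 1 (adjusted p = 0.0758) and as the mean of its probe sets (0.0933). Crabp2, a binding protein for retinoic acid, already stood near 12.66 in open tissue and rose by 0.57 (SE 0.07). The homeobox genes Meis1 and Meis2, which respond to retinoic acid, rose by 3.10 (SE 0.18) and 2.22 (SE 0.20). Stra6, the retinol transporter, was highest on open replicate 3: it read 6.40, 5.90 and 8.13 on the open arrays and 5.74, 5.66 and 6.24 on the closed arrays, a difference of -0.93 (adjusted p = 0.322, 0.0195 with the replicate block and 0.00698 without open replicates 1 and 2), and of -1.70 (5.78e-06) with the covariate.

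FGF ligands, receptors and feedback genes lay in both directions. Of 25 tested members 5 were higher and 9 lower in closed tissue (median -0.12). Fgf8, the main FGF of the caudal progenitor zone, read 8.01, 7.97 and 7.93 on the open arrays and 4.55, 4.58 and 4.02 on the closed arrays (difference -3.59, SE 0.20), with all closed arrays near background. Fgf17 read 9.07, 8.23 and 10.13 on the open arrays and 3.60, 4.83 and 5.06 on the closed arrays (difference -4.64, SE 0.45) and Fgf18 9.13, 8.43 and 9.59 against 4.62, 5.25 and 5.02 (difference -4.09, SE 0.30); the arrays of a group were spread widely for both, yet the groups stayed apart. Fgf15, an FGF expressed in the neural tube, went the other way, at 6.97, 6.60 and 6.67 on the open arrays and 9.90, 9.43 and 9.58 on the closed arrays (difference 2.89, SE 0.15, adjusted p = 2.57e-07). Fgf3, Fgf4 and Fgf9 differed by 0.11, 0.05 and -0.10 and did not pass, except Fgf9 as the mean of its probe sets (-0.47, adjusted p = 0.0256).

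The receptor genes Fgfr2 and Fgfr3 were higher in closed tissue. Fgfr2 read 7.72, 8.56 and 7.28 on the open arrays and 11.16, 11.12 and 10.70 on the closed arrays, a difference of 3.14 (SE 0.30, adjusted p = 3.20e-05), and Fgfr3 rose by 1.98 (SE 0.16), while Fgfr1, the receptor of caudal progenitors, had 0.41 (adjusted p = 0.455, and 0.0447 with the replicate block). Fgfbp3, which binds FGFs outside the cell, rose from 5.09, 4.97 and 6.26 to 9.44, 9.02 and 9.57 (difference 3.90, SE 0.31). Several feedback genes that FGF signalling induces were lower: the phosphatase gene Dusp6 read 11.60, 11.71 and 11.03 on the open arrays and 9.07, 9.67 and 9.11 on the closed arrays (difference -2.16, SE 0.21), and Spry1 fell by 1.26 (SE 0.17). Il17rd, a membrane inhibitor of the pathway, differed by -1.42 (SE 0.11), and the ETS factor Etv5 by -1.36 (SE 0.26), with adjusted p = 0.126 as the mean of its probe sets. Dusp4 (-0.80) and Spry4 (-0.78) missed the threshold (adjusted p = 0.0754 and 0.0829). They passed with the replicate block (0.000627 and 0.0347) and without open replicate 2 (0.0373 and 0.00227). Without open replicates 1 and 2 together they had -1.40 and -1.26 (0.0115 and 0.00792), and with the covariate -1.18 and -1.03 (7.49e-06 and 0.00561). Spry4 had -1.19 (0.000111) as the mean of its probe sets, and Dusp4 an adjusted p of 0.036 with the block across stages.

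In the Wnt pathway 9 of 42 members were higher and 10 lower in closed tissue (median -0.02), and ligands and receptors each held both directions. Of the ligands and agonists, Rspo3, which amplifies Wnt signals, read 11.21, 11.10 and 10.73 on the open arrays and 7.59, 7.48 and 7.12 on the closed arrays (difference -3.62, SE 0.19), the widest gap of the list. Wnt5a, a ligand of the planar polarity branch, read 11.38, 11.33 and 11.35 on the open arrays and 9.34, 9.54 and 9.06 on the closed arrays (difference -2.04, SE 0.14), and Wnt5b fell with it by 2.13 (SE 0.18). Wnt4 lay the other way, at 5.34, 5.79 and 5.42 on the open arrays and 8.41, 8.17 and 8.71 on the closed arrays (difference 2.91, SE 0.18, adjusted p = 1.17e-06). Among receptors, Fzd7 (2.51, SE 0.22), Fzd8 (1.73, SE 0.16) and the R-spondin receptor Lgr4 (1.04, SE 0.10) were higher. Fzd6 had -0.94 (SE 0.17, adjusted p = 0.00437), with adjusted p = 0.103 without open replicates 1 and 2. Several pathway targets and feedback inhibitors were lower: Sp5 (-1.65, SE 0.25), Nkd1 (-1.28, SE 0.19) and Dact1 (-1.19, SE 0.12). Axin2, the general readout gene, had -0.51 (adjusted p = 0.0963, 0.00152 with the replicate block, 0.0368 with the block across stages and 0.00164 with the covariate). The secreted inhibitor Sfrp1 (1.25, SE 0.20) and the repressor Tcf7l1 (1.41, SE 0.17) were higher in closed tissue.

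Notch pathway genes were higher in 3 and lower in 3 of 25 tested members, against 2.75% and 5.79% of all tested genes. The median was -0.08 (-0.02 without open replicates 1 and 2), and some relatives had wide gaps in opposite directions. Hes5, the Notch target of neural progenitors, read 9.20, 9.08 and 8.27 on the open arrays and 11.33, 11.16 and 10.93 on the closed arrays, a difference of 2.29 (SE 0.22, adjusted p = 3.71e-05). Hes7, the oscillating Notch target of the segmentation clock, read 9.18, 8.81 and 9.33 on the open arrays and 5.87, 6.14 and 5.97 on the closed arrays, a difference of -3.12 (SE 0.15, adjusted p = 1.61e-07). The ligand gene Dll3, needed for somite segmentation, read 9.11, 8.54 and 9.57 on the open arrays and 6.90, 6.64 and 6.83 on the closed arrays (difference -2.28, SE 0.23). Dll1 (1.116), Hey2 (0.81) and Hey1 (-1.105) were also called by limma (adjusted p = 0.0432, 0.0241 and 0.00129). Dll1 and Hey2 lost the call without closed replicate 2 or closed replicate 3 (adjusted p up to 0.1725). Without open replicates 1 and 2 the 3 differences were 0.91, 0.85 and -0.76. Notch receptor genes Notch1, Notch2 and Notch3 differed by -0.12, 0.17 and -0.28, and the effector Rbpj by -0.02. Hes1, expressed in both settings, had -0.27 (adjusted p = 0.703). With the 3-prime minus 5-prime covariate Hes1 had -0.68 (0.0307) and Notch2 0.47 (0.0481), both past the threshold.

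The 250 bases before the starts of Hes5 (RefSeq, GRCm38.p6, chr4:154960673-154960922, plus strand) and Hes7 (chr11:69120203-69120452, plus strand) are given because these related Notch targets differed in opposite directions. Capitals mark the core GTGGGAA of the binding site of Rbpj, on either strand.
Hes5: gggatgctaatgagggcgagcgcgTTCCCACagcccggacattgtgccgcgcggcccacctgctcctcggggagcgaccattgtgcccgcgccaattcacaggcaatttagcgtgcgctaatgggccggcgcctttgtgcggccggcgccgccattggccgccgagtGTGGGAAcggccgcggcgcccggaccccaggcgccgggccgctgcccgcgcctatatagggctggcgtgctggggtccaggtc
Hes7: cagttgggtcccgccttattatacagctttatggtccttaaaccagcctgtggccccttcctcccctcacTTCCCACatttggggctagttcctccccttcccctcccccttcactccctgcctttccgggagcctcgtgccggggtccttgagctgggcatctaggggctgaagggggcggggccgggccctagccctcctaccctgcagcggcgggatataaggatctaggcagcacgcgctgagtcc
Hes5 holds 2 matches, starting 226 and 83 bases before the gene start, and Hes7 holds 1, at 180 bases. This short motif, picked after the values were seen, occurs in 1779 of 32851 windows of this length (5.42%). It is a description of the letters only.

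Early neuronal genes were higher in closed tissue in 5 of 23 tested members and lower in 2 (median 0.16; 9 and 4 with the replicate block). The proneural factor Neurog2 read 6.84, 7.0 and 6.82 on the open arrays and 9.90, 9.64 and 9.46 on the closed arrays, a difference of 2.78 (SE 0.16, adjusted p = 4.24e-07). Gadd45g (1.95, SE 0.18), induced in cells about to leave the cycle, Neurog3 (1.21, SE 0.10) and the RNA-binding protein gene Elavl4 (1.09, SE 0.15) were higher. Of genes of later neurons, the tubulin gene Tubb3 differed by -0.13 and the neurofilament gene Nefl by -0.18, and Neurod1, Neurod4, Dcx and Lhx1 lay below the filter. Nefm, another neurofilament gene, was lower by limma (difference -0.67, adjusted p = 0.0384). It lost the call without open replicate 1, 2 or 3, and without closed replicate 2 or 3 (adjusted p up to 0.1626). Mnx1, a motor neuron factor that is also expressed in caudal tissue and notochord, was lower, at 7.25, 7.75 and 8.05 on the open arrays and 5.25, 5.27 and 5.77 on the closed arrays (difference -2.25, SE 0.25). Gad1, the gene of a GABA-synthesizing enzyme, fell from 8.75, 8.59 and 8.53 to 3.92, 4.49 and 4.48 (difference -4.32, SE 0.19, adjusted p = 1.04e-07); closed signal was at background, so that the difference has no firm size, while the GABA transporter gene Slc32a1 differed by 0.12.

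Caudal progenitor genes were lower in closed tissue in 17 of 30 tested members and higher in 2 (median -1.01, and -1.41 with the same counts without open replicates 1 and 2). Not all of them were off in closed tissue. Nkx1-2, a marker of preneural epithelium, read 12.47, 12.45 and 12.43 on the open arrays and 10.69, 10.95 and 10.83 on the closed arrays (difference -1.63, SE 0.12), so that closed tissue still lay far above the filter. Greb1, better known as an oestrogen-induced gene, read 12.53, 12.53 and 12.40 on the open arrays and 10.70, 10.80 and 10.43 on the closed arrays, a difference of -1.85 (SE 0.10, adjusted p = 4.21e-07). The caudal homeobox genes Cdx2 (10.81, 10.90 and 11.50 against 9.15, 8.71 and 9.21, difference -2.05, SE 0.22) and Cdx4 (10.65, 10.46 and 10.96 against 8.59, 8.56 and 8.86, difference -2.02, SE 0.15) fell and also remained well above the filter in closed tissue. Evx1, a homeobox gene of the primitive streak and tail, read 10.33, 10.29 and 10.35 on the open arrays and 6.11, 6.28 and 6.15 on the closed arrays, a difference of -4.14 (SE 0.21, adjusted p = 2.53e-07), and Evx1os, a noncoding transcript named as its opposite strand, read 8.79, 8.91 and 8.90 against 4.70, 4.53 and 4.88 (difference -4.16, SE 0.17). Whether that probe set also reads Evx1 transcripts was not tested. Mixl1, a streak gene outside the list, read 8.66, 7.98 and 8.43 on the open arrays and 4.76, 4.97 and 4.94 on the closed arrays (difference -3.47, SE 0.19). Sall4, a pluripotency-associated factor, fell by 0.72 (SE 0.09). Nr6a1, an orphan nuclear receptor of early embryos, was against the list, at 8.68, 8.42 and 9.12 on the open arrays and 11.20, 10.68 and 11.30 on the closed arrays (difference 2.32, SE 0.19, adjusted p = 1.12e-05).

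Hox genes differed by paralogue group. In groups 10 to 13, 6 of 7 tested members were lower in closed tissue and 0 higher (median -2.09), against 5.79% of all tested genes lower. In groups 6 to 9 the counts were 2 lower and 1 higher of 9 (median -0.25; 0 higher without open replicates 1 and 2), and in groups 1 to 5 they were 3 and 0 of 13 (median -0.11; 1 lower without open replicates 1 and 2). Hoxc10, a lumbar-level gene, read 11.99, 11.73 and 12.13 on the open arrays and 8.94, 10.86 and 9.78 on the closed arrays (difference -2.09, SE 0.37). Hoxa10 read 9.20, 9.51 and 9.73 on the open arrays and 6.49, 8.13 and 7.38 on the closed arrays (difference -2.14, SE 0.32), and Hoxd10 8.93, 9.54 and 9.27 against 3.70, 6.53 and 4.85 (difference -4.22, SE 0.51). Without open replicates 1 and 2, Hoxc10 had adjusted p = 0.0502. For these 3 genes closed replicate 2 stood highest of the closed arrays and closed replicate 1 lowest, and Hoxd9 (8.76, 9.93 and 9.03 on the closed arrays) had the same order. Closed replicate 2 nonetheless stayed below every open array. Hoxa11, the next paralogue in its cluster, read 7.53, 8.03 and 8.54 on the open arrays and 4.26, 4.70 and 4.91 on the closed arrays (difference -3.41, SE 0.22), without that order.

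Several trunk Hox genes were nearly level. Hoxa9 read 13.09, 13.12 and 13 on the open arrays and 12.62, 12.77 and 12.55 on the closed arrays, a difference of -0.42 (adjusted p = 0.0534, 0.00458 with the replicate block, 0.0499 without open replicate 3, 0.018 with the E9.5 arrays alone and 0.0205 with median centring), and Hoxc8, Hoxc9 and Hoxa7 differed by -0.05, 0.04 and 0.00. Hoxd8 was lower (difference -1.40, SE 0.21). Hoxb9 alone of the tested Hox genes was higher, by 0.82 (SE 0.13, adjusted p = 0.00183) with adjusted p = 0.07 without open replicates 1 and 2. Hoxd1, of the lowest paralogue group, was lower with 10.06, 10.55 and 9.30 on the open arrays and 7.81, 8.15 and 7.22 on the closed arrays (difference -2.25, SE 0.31), and its neighbours by number Hoxb1, Hoxa2 and Hoxb2 differed by -0.24, 0.16 and -0.25. Hoxd13 (-1.57) was highest on open replicate 2, at 5.13, 7.25 and 5.29 on the open arrays, and lost the call without closed replicate 1, 2 or 3 (adjusted p up to 0.121), as the mean of its probe sets (0.155), with the E9.5 arrays alone (0.11) and with the 3-prime minus 5-prime value as covariate (0.0527). It was -0.97 without open replicates 1 and 2.

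Genes of neighbouring tissues were mixed. Presomitic mesoderm genes were lower in 4 of 12 and higher in 1 (median -0.26; 2 higher with the replicate block). Tbx6, which specifies paraxial mesoderm, read 6.64, 5.42 and 6.77 on the open arrays and 4.11, 4.67 and 4.08 on the closed arrays (difference -1.99, SE 0.34), with open replicate 2 nearest to the closed arrays and a closed mean at background. The higher member was Pcdh8, a protocadherin of segmenting mesoderm that neural tissue also expresses, at 5.55, 6.15 and 4.53 on the open arrays and 10.08, 10.27 and 9.90 on the closed arrays (difference 4.67, SE 0.36, adjusted p = 6.57e-06). In the notochord list 4 of 13 were higher and 3 lower. Its median of 0.24 changed sign with the covariate (-0.05) and without open replicates 1 and 2 (-0.08). Differences in this list ran from -0.99 to 2.41. Its member Car3, a carbonic anhydrase, read 6.99, 6.53 and 7.17 on the open arrays and 9.77, 8.56 and 9.58 on the closed arrays (difference 2.41, SE 0.31). Foxa2, shared by notochord and floor plate, rose by 0.87 (SE 0.21, adjusted p = 0.0228) but had an adjusted p of up to 0.103 without open replicate 1, open replicate 2, closed replicate 1 or closed replicate 3, and 0.275 without open replicates 1 and 2.

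Epithelial genes of the surface ectoderm list were lower in 6 of 27 and higher in 1 (median -0.08; 2 higher with the replicate block). Grhl3, required for closure of the posterior neuropore, read 7.05, 6.70 and 7.36 on the open arrays and 5.24, 5.15 and 5.57 on the closed arrays, a difference of -1.72 (SE 0.21, adjusted p = 0.000193), while its relative Grhl2 differed by -0.02. The membrane protease inhibitor genes Spint1 (-1.63, SE 0.24) and Spint2 (-1.18, SE 0.12) were lower with it. Epcam, an epithelial adhesion molecule, read 7.69, 8.43 and 7.25 on the open arrays and 5.47, 6.41 and 5.41 on the closed arrays (difference -2.03, SE 0.31). Closed replicate 2 stood above the other closed arrays. Another Epcam probe set above the filter had means of 6.67 in open and 6.77 in closed tissue, a difference of 0.10. Tfap2c was higher in closed tissue by 1.89 (SE 0.31). The simple-epithelium keratins Krt8 and Krt18 differed by 0.51 and 0.01 (adjusted p = 0.27 and 0.99, and 0.00746 for Krt8 with the replicate block). Of 8 tested claudins, which seal tight junctions, 1 was higher and 2 lower (4 lower with the replicate block, 0 higher without open replicates 1 and 2). Cldn9 differed most, at 9.47, 9.38 and 9.54 on the open arrays and 7.27, 7.17 and 7.26 on the closed arrays (difference -2.23, SE 0.19).

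Of the 6 tested blood genes 0 were higher and 1 lower (2 lower with the replicate block). The embryonic globins Hbb-y (-0.68), Hbb-bh1 (-0.81) and Hba-x (-0.52) did not pass, except Hbb-bh1 with the replicate block (adjusted p = 0.015). Lmo2, a cofactor of blood and vessel progenitors, was lower, at 9.02, 9.05 and 8.88 on the open arrays and 4.79, 4.67 and 4.85 on the closed arrays (difference -4.22, SE 0.18, adjusted p = 1.04e-07). Etv2, the ETS factor of endothelial progenitors, read 7.42, 7.67 and 7.37 on the open arrays and 6.42, 6.21 and 6.54 on the closed arrays (difference -1.09, SE 0.13). In the endothelial list 1 of 11 was higher and 1 lower (0 higher without open replicates 1 and 2), in the hindgut list 3 of 11 were higher and 1 lower (2 lower with the replicate block), in the lateral mesoderm list 0 and 3 of 12 (1 higher with the replicate block, 1 lower without open replicates 1 and 2), and in the somite list 1 and 1 of 8 (0 lower without them). Kdr, a receptor on vessel cells, rose by 0.69 (SE 0.14), with adjusted p = 0.0653 without open replicates 1 and 2.

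**Figure D4:**
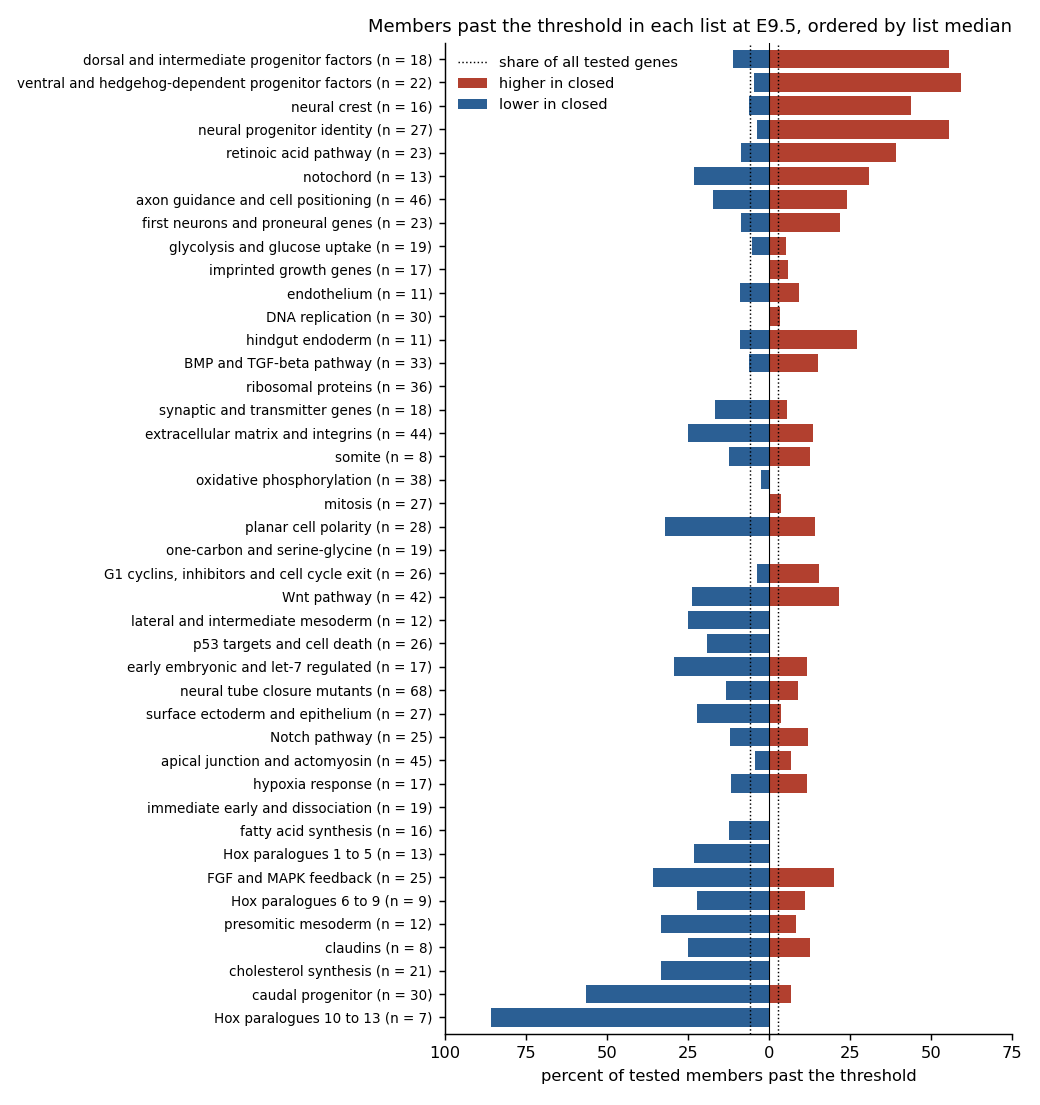
Percent of tested members past the threshold in each list at E9.5, higher in closed tissue to the right (red) and lower to the left (blue), with the number tested in brackets, for lists of at least 7 tested genes ordered by their median difference. Dotted lines mark the shares of all tested genes, 2.75% higher and 5.79% lower. Hox paralogues 10 to 13 and caudal progenitor genes are at the bottom, and neural patterning lists are at the top.

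Genes whose loss disturbs neural tube closure in the mouse showed no common direction. Of 68 tested members 6 were higher and 9 lower (median -0.08; 11 and 16 with the replicate block, 3 and 7 without open replicates 1 and 2, and 3 higher without closed replicate 2). Beside Cyp26a1, Cdx2, Grhl3, Zic5 and Pax3, already described, Gadd45a, a growth arrest gene, rose from 6.78, 7.17 and 6.50 to 8.73, 8.84 and 8.12 (difference 1.75, SE 0.23, adjusted p = 0.000365). The repressor gene Ski rose by 0.81 (SE 0.14), but had adjusted p = 0.132 as the mean of its probe sets. Sp8, a zinc finger factor needed for neuropore closure, fell from 9.93, 10.05 and 9.70 to 9.01, 9.02 and 8.83 (difference -0.94, SE 0.17), with adjusted p = 0.137 without open replicates 1 and 2. The actin regulators Enah, Cfl1, Vcl and Marcks differed by -0.09, -0.09, -0.28 and 0.20 and did not pass, except Marcks with the covariate (0.41, adjusted p = 0.00642) and Cfl1 and Vcl with array weights (0.0342 and 0.0293).

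Planar cell polarity genes, whose products narrow and lengthen the neural plate, were lower in 9 of 28 tested members and higher in 4 (median 0.01; 7 and 2 without open replicates 1 and 2). Higher members also numbered 2 without open replicate 1, without closed replicate 1 and with the E9.5 arrays alone. The core gene Vangl2 read 9.25, 9.47 and 10.37 on the open arrays and 10.10, 10.34 and 10.70 on the closed arrays, a difference of 0.68 (adjusted p = 0.276, 0.00126 with the replicate block and 0.0378 without open replicate 3), and the difference was 0.00 without open replicates 1 and 2. Open replicate 3 stood within the closed range for it. Vangl1 rose by 0.74 (SE 0.12, adjusted p = 0.00218), with adjusted p = 0.0725 without open replicates 1 and 2. Ptk7, a polarity receptor, was lower (difference -0.95, SE 0.18, adjusted p = 0.00585), and so was Prickle1 (difference -0.78, SE 0.11), with adjusted p = 0.189 as the mean of its probe sets. Fat4, an atypical cadherin, fell from 5.56, 6.20 and 5.85 to 4.29, 4.44 and 4.20 (difference -1.56, SE 0.16). Celsr1, Scrib, Dvl1, Dvl2 and Dvl3 differed by between -0.04 and 0.28 and did not pass.

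Of 45 tested apical junction and actomyosin genes, which drive bending of the plate, 3 were higher and 2 lower (5 lower with the replicate block). Of all tested genes 2.75% were higher and 5.79% lower. The median of the list was -0.09 (-0.06 without open replicates 1 and 2). Lmo7, a junction protein that binds actin-associated partners, read 7.20, 7.29 and 7.06 on the open arrays and 4.98, 4.90 and 5.02 on the closed arrays, a difference of -2.22 (SE 0.16, adjusted p = 3.26e-06). Llgl2, a basolateral polarity gene, rose from 5.74, 5.82 and 5.92 to 6.96, 6.78 and 6.76 (difference 1.01, SE 0.11), and Cdh6, a cadherin, rose by 0.70 (SE 0.13). Shroom3, which drives apical constriction, had -0.56 (adjusted p = 0.0598, 0.00431 with the replicate block, 0.0337 with median centring and 0.0238 without open replicate 3). Myh9, Myh10, Tjp1 and Ctnnb1 differed by -0.24, -0.01, -0.01 and -0.02. Limch1, an actin- and myosin-binding protein outside the list, was lower, at 10.80, 10.62 and 10.24 on the open arrays and 8.66, 8.45 and 8.16 on the closed arrays (difference -2.13, SE 0.16).

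Matrix and integrin genes were higher in 6 of 44 and lower in 11 (median 0.04; 3 and 5 without open replicates 1 and 2). The count of lower members was 6 without open replicate 1, open replicate 2 or closed replicate 3, and 5 without closed replicate 2. Has2, which makes hyaluronan, read 9.53, 9.60 and 9.29 on the open arrays and 7.89, 7.90 and 7.51 on the closed arrays, a difference of -1.70 (SE 0.17, adjusted p = 3.68e-05). The integrin genes Itga8 (1.74, SE 0.19) and Itgb5 (-0.79, SE 0.13) lay in opposite directions, and Col9a1, a fibril-associated collagen, rose from 5.41, 5.60 and 5.48 to 7.35, 6.58 and 6.95 (difference 1.46, SE 0.23).

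Guidance and positioning genes lay in both directions. Of 46 tested members 11 were higher and 8 lower (median 0.17; 14 and 13 with the replicate block). Netrin Ntn1 read 5.31, 5.40 and 5.12 on the open arrays and 7.33, 7.83 and 7.88 on the closed arrays (difference 2.40, SE 0.17), and its receptor gene Unc5b 9.80, 9.67 and 9.40 against 6.87, 7.44 and 7.07 (difference -2.49, SE 0.18), in the opposite direction. Nrp1, a semaphorin and VEGF receptor, read 5.40, 5.52 and 5.66 on the open arrays and 8.69, 8.38 and 8.30 on the closed arrays, a difference of 2.93 (SE 0.16, adjusted p = 3.70e-07). Ephrin-B genes Efnb2 (1.19, SE 0.10) and Efnb3 (1.33, SE 0.21) were higher, whereas the ephrin-A genes Efna1 (-1.85, SE 0.32) and Efna3 (-0.82, SE 0.16) and the receptors Epha2 (-2.17, SE 0.19), Epha4 (-1.56, SE 0.14) and Epha5 (-2.37, SE 0.21) were lower. Efna5, also an ephrin-A, rose by 0.54 (SE 0.15, adjusted p = 0.0432) but lost the call without open replicate 2, open replicate 3, closed replicate 1 or closed replicate 2 (adjusted p up to 0.157) and under 6 other settings, among them the mean of its probe sets (0.153). Draxin, a chemorepellent of the dorsal spinal cord, rose by 1.78 (SE 0.20), and Cxcr4, a chemokine receptor, by 1.85 (SE 0.25).

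Proliferation genes were nearly level, apart from a few regulators. Of 30 DNA replication genes 1 was higher and 0 lower (median 0.11; 5 and 1 with the replicate block, 0 higher without open replicates 1 and 2), and of 27 mitosis genes 1 was higher and 0 lower (median 0.03; 1 lower with the replicate block, 0 higher without open replicates 1 and 2). Top2a and Mki67, expressed in cycling cells, differed by 0.01 and -0.01. Ccnd2, the D-type cyclin of neural progenitors, read 11.64, 11.51 and 11.47 on the open arrays and 13.24, 13.002 and 13.06 on the closed arrays, a difference of 1.56 (SE 0.08, adjusted p = 1.84e-07), whereas Ccnd1 differed by -0.01. Cdkn1a, the p21 inhibitor that p53 induces, read 9.84, 9.58 and 9.29 on the open arrays and 6.57, 6.37 and 6.31 on the closed arrays, a difference of -3.15 (SE 0.18, adjusted p = 4.66e-07). Pmaip1, the pro-apoptotic Noxa gene, fell from 10.93, 11.01 and 11.20 to 9.29, 9.77 and 9.52 (difference -1.52, SE 0.14). They were among 5 lower and 0 higher of 26 p53 target and death genes (median -0.05; 1 higher with the replicate block and 2 lower without open replicates 1 and 2). Other p53 targets were divided. Trp53inp1 (-1.045, adjusted p = 0.00258 by limma, and -0.82 without open replicates 1 and 2) and Sesn1 (-0.71) were also lower. Mdm2, Zmat3 and Bbc3 differed by 0.12, 0.05 and 0.09.

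In the cholesterol synthesis list 7 of 21 genes were lower in closed tissue and 0 higher (median -0.41; 13 lower with the replicate block). The differences were small for most enzymes. Hmgcs1, an enzyme early in the pathway, read 12.81, 12.92 and 12.76 on the open arrays and 12.48, 12.45 and 12.33 on the closed arrays, a difference of -0.41 (SE 0.08, adjusted p = 0.00663). Cyp51, a sterol demethylase, read 9.58, 9.53 and 9.999 on the open arrays and 8.71, 9.11 and 8.86 on the closed arrays (difference -0.81, SE 0.16), and Sqle, which makes squalene epoxide, 11.44, 11.43 and 11.45 against 10.96, 11.10 and 10.98 (difference -0.42, SE 0.08). Without open replicates 1 and 2 Hmgcs1, Sqle and Sc5d had adjusted p = 0.172, 0.0783 and 0.0737, while Cyp51 kept its call (0.0124). As the mean of their probe sets, Hmgcs1 and Sc5d had 0.0684 and 0.0562. Lpin1, the list's member with the widest gap, acts in triglyceride and phospholipid synthesis rather than on sterols and fell from 7.54, 7.87 and 7.77 to 5.87, 5.92 and 5.89 (difference -1.83, SE 0.12).

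Housekeeping and stress groups stayed near the background. Ribosomal protein genes had 0 higher and 0 lower of 36 (median 0.06) by limma, and 2 higher and 0 lower with the replicate block. Oxidative phosphorylation genes had 1 lower of 38 and 0 higher (median 0.03; 1 higher with the replicate block, 0 lower without open replicates 1 and 2). One-carbon and serine-glycine genes had 0 and 0 of 19 (median 0.01; 2 lower with the replicate block). Immediate early genes, which tissue dissociation can induce, had 0 and 0 of 19 (median -0.11; 2 lower with the replicate block), although Egr1 had -0.83 and passed with the replicate block (adjusted p = 0.0031, against 0.0517) and without open replicate 3 (0.000119). Its adjusted p was 0.033 with quantile normalization, 0.0336 with median centring, 0.0241 with the block across stages and 0.0416 with the covariate. Slc2a1, the main glucose carrier, rose from 12.25, 12.22 and 12.31 to 13.08, 12.88 and 12.83 (difference 0.67, SE 0.08).

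Early embryonic and let-7-regulated genes were lower in 5 of 17 and higher in 2 (median -0.05; 3 lower without open replicates 1 and 2). Lower members numbered 3 without closed replicate 1 or closed replicate 2, and 2 without open replicate 1 or closed replicate 3. Dnmt3b, a DNA methyltransferase of early embryos, read 10.51, 10.45 and 10.53 on the open arrays and 9.95, 9.64 and 9.96 on the closed arrays (difference -0.64, SE 0.10). Lin28a, which blocks let-7 processing, read 12.43, 12.08 and 12.72 on the open arrays and 11.74, 12.10 and 11.98 on the closed arrays, a difference of -0.47 (SE 0.14, adjusted p = 0.0645). It passed with the replicate block (0.0194), with the covariate (0.000814), as the mean of its probe sets (0.0197), without open replicate 2 (0.00716) and without open replicates 1 and 2 together (0.00825). Regulators of the G1 phase and cell cycle exit were higher in 4 and lower in 1 of 26 (median 0.00; 3 lower with the replicate block). Fatty acid synthesis genes were lower in 2 of 16 (4 with the replicate block, 1 without open replicates 1 and 2), and hypoxia response genes were higher in 2 and lower in 2 of 17 (1 and 0 without them). Imprinted growth genes were higher in 1 of 17 and lower in 0, against 4 and 3 with the replicate block. Glycolysis genes were higher in 1 and lower in 1 of 19 (2 higher with the replicate block), and synaptic genes in 1 and 3 of 18.

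Among the genes with the largest differences outside the lists, several were adhesion or neurite genes higher in closed tissue. Nrcam, a neural adhesion molecule, read 5.69, 6.30 and 5.82 on the open arrays and 10.04, 9.35 and 9.66 on the closed arrays (difference 3.75, SE 0.21), and Fez1, a kinesin adaptor of growing neurites, 5.97, 5.93 and 5.64 against 9.35, 9.27 and 9.19 (difference 3.42, SE 0.15). Ndnf, a secreted neuron-derived factor, rose from 5.60, 6.14 and 6.02 to 9.40, 9.34 and 9.47 (difference 3.48, SE 0.15). The noncoding RNA Miat rose by 2.88 (SE 0.29). At high signal, Kbtbd11, a kelch-domain protein, read 8.91, 8.75 and 8.27 on the open arrays and 12.08, 11.89 and 11.81 on the closed arrays, a difference of 3.29 (SE 0.17, adjusted p = 2.57e-07). Lower in closed tissue were the forkhead gene Foxd1, at 10.57, 10.87 and 10.66 on the open arrays and 7.82, 8.27 and 8.13 on the closed arrays (difference -2.63, SE 0.36), and the ETS factor Ets2, at 11.49, 11.34 and 11.41 against 9.24, 9.16 and 9.01 (difference -2.28, SE 0.13). Lypd6b, a Ly6-domain protein, fell from 9.33, 9.36 and 8.82 to 5.21, 5.0 and 5.12 (difference -4.06, SE 0.18), and Tril, an accessory protein of Toll-like receptors, from 9.79, 9.42 and 9.49 to 6.07, 6.08 and 6.48 (difference -3.35, SE 0.17).

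The same contrast at E8.5, with 3 open and 2 closed arrays, called 958 genes (7.18%). Of the 367 genes higher at E9.5, 353 had a positive difference at E8.5 and 244 (66.5%) were called higher there, where 3.8% of all tested genes were. Of the 772 lower genes, 673 had a negative difference at E8.5 and 299 (38.7%) were called lower, against 3.38% of all. The test of the stage difference itself, the interaction of region and stage, passed for 167 genes (1.25%), 40 above 0 (0.3%) and 127 below 0 (0.952%), of which 111 were called at E9.5. Calls in opposite directions at the 2 stages were made for 8 genes: Shh, Hoxb9 and Selenop were higher at E9.5 and lower at E8.5, and Lpl, Hmgcs1, Sqle, Sc5d and Car8 lower at E9.5 and higher at E8.5. Of these 8, Lpl kept its E9.5 call without open replicates 1 and 2, and the others had adjusted p from 0.07 to 0.199 there. Selenop encodes a selenium carrier and Car8 a carbonic anhydrase-related protein.

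Among Hox genes the stage difference passed in both directions. Groups 6 to 9 had 8 of 9 members lower at E8.5 (median -1.90), and the interaction was above 0 and past the threshold for 6 of them, against 0.3% of all tested genes. Groups 10 to 13 had 1 of 7 lower at E8.5 (median -0.09). Hoxd10 differed by -0.06 at E8.5 and -4.22 at E9.5, a stage difference of -4.16 (adjusted p = 0.0239), and Hoxa11 by -0.09 and -3.41 (-3.32, 0.000844). At E8.5 both genes had means below the filter value in both tissues, 3.22 open and 3.16 closed for Hoxd10 and 4.18 and 4.10 for Hoxa11. Hoxa9 went the other way, from -2.63 to -0.42 (2.21, 0.000183). Tissue was taken relative to the closure point, so stage and axial level cannot be told apart here.

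The cholesterol synthesis list had medians of opposite sign at the 2 stages. At E8.5 5 of 21 were higher and 1 lower in closed tissue (median 0.42), and the stage difference was below 0 and past the threshold for 9 of them, against 0.952% of all. Lpl, a lipase that frees fatty acids from lipoproteins, read 11.41, 11.53 and 11.13 on the open arrays and 9.44, 10.31 and 9.50 on the closed arrays at E9.5, a difference of -1.61 (SE 0.21), and was higher by 1.57 at E8.5. In the neural progenitor list the stage difference passed above 0 for 2 and below 0 for 3 of 27 genes. Sox1 rose by 2.97 at E8.5 against 1.05 at E9.5, whereas Rfx4, a regulatory factor X gene of the neural tube (2.57 against 3.95) and Neurog2 (1.68 against 2.78) had larger differences at E9.5. Etv5 (-3.57 against -1.36) and Il17rd (-3.10 against -1.42) had smaller ones. Pax6, Cyp26a1, Fgf8, Evx1 and Rspo3 had no stage difference past the threshold (adjusted p from 0.235 for Cyp26a1 to 0.675 for Rspo3).

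**Figure D5:**
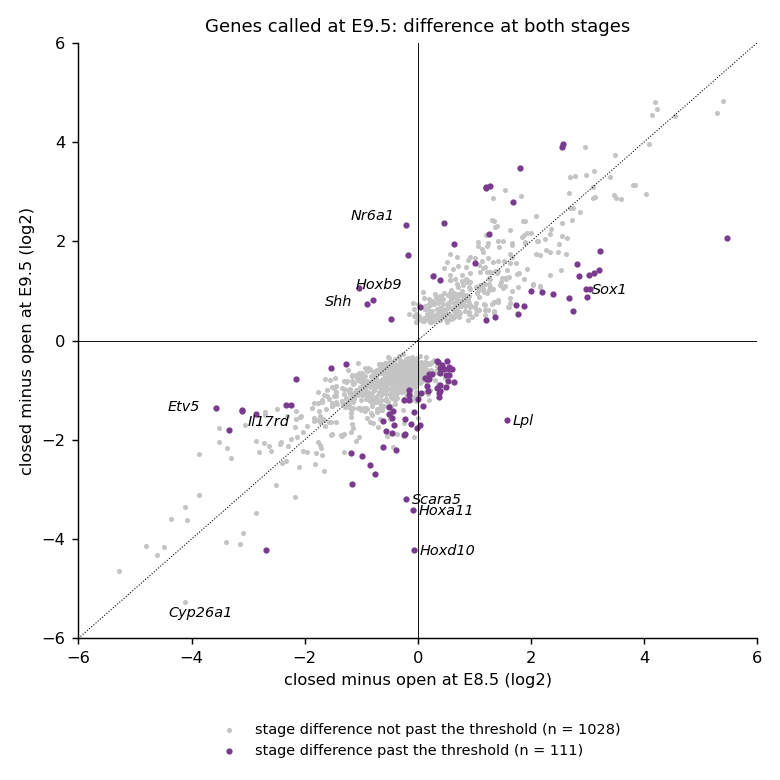
Closed minus open difference (log2) at E8.5 (horizontal) and E9.5 (vertical) of the 1139 genes called at E9.5, with 111 genes whose stage difference passed the threshold in purple and the line of equal differences dotted. Hoxd10, Hoxa11 and Scara5 lie below 0 at E9.5 with differences near 0 at E8.5, where Hoxd10 and Hoxa11 had means below the filter value. Lpl, Shh and Hoxb9 lie in the quadrants of opposite sign.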

How the data were processed

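The 11 Affymetrix Mouse Genome 430 2.0 arrays were read from the values the authors deposited, which are on a log2 scale by their range. Per the submitters' processing notes MAS5 was among the tools, with no version or role given. The values have near-equal distributions across arrays and no value below 2, so the background correction and normalization behind the deposited log2 signal stay unknown.

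Of 45101 probe sets, 64 controls were left out, and 34945 carried 1 gene symbol, 932 several and 9160 none in the platform annotation. Each of 18193 genes was represented by its one-symbol probe set of highest mean over the 11 arrays, and means of at least the 40th percentile (4.3) were tested (13341 genes). Of the 1139 genes called, 529 had another probe set above the filter, and for 66 of these some probe set differed in sign. Symbols of 13266 genes were matched to RefSeq by Entrez ID.

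Differences were fitted with limma 3.58.1 (R 4.3.3) as 4 group means over all 11 arrays, with an intensity trend and 7 residual degrees of freedom. P-values were Benjamini-Hochberg adjusted over all tested genes (threshold 0.05), and called, higher, lower, rose and fell refer to it. Litters were pooled and the labels call the arrays biological replicates. The fit was tested on simulated data with independent noise of the same spread on every array. It recovered 90% of 100 genes set to differ by 1 and 99% of 100 set to differ by 2, with 10 false calls. Deviations shared between arrays, as described below, and unequal array quality were not simulated. The number of arrays limits the precision.

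Same-numbered open and closed arrays at E9.5 deviated together (correlation across genes 0.308, 0.341 and 0.687), and so did open 1 with closed 2 (0.264) and open 2 with closed 1 (0.317). By the rule applied the numbers pair the arrays, although the labels do not say that they share litters, and a fit with the number within each stage as a block is given where it changes a call. A block across stages was also run. Other alternatives were quantile normalization, median centring, other filters, the mean of a gene's probe sets, other variance models, array weights, the E9.5 arrays alone, the 3-prime minus 5-prime value as covariate, and arrays left out. The members and the 43 gene lists were chosen with earlier results of these data known. Genes named are examples of the largest differences (15 in each direction, and 10 with both means at least 7), the 3 of smallest p in each direction per list, the 6 of smallest p in each direction for the stage difference, and cell type markers. Other named genes were list members or were chosen after their values were seen. Figures were drawn with matplotlib 3.10.9 and pandas 2.3.3 in Python 3.11.15. Genes without a one-symbol probe set were not analysed here.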

Additional observations from a re-analysis of the deposited data

Results flagged for a closer look

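For each gene in this section the difference between closed and open tissue at E9.5 departed from that at E8.5 by the limma test of the interaction at an adjusted p under 0.05, which is why it is listed. Values are the E9.5 difference minus the E8.5 difference (log2). No explanation was weighed, and tissue was taken relative to the closure point at both stages. Among Hox genes, the value was above 0 for Hoxa9 (2.21), Hoxc8 (2.21), Hoxc9 (1.94), Hoxd8 (1.71), Hoxa7 (1.63) and Hoxb9 (1.61). It was below 0 for Hoxd10 (-4.16) and Hoxa11 (-3.32), both with means below the filter value at E8.5. Among sterol and lipid genes, the value was below 0 for Lpl (-3.18), Cyp51 (-1.34), Lpin1 (-1.27), Sc5d (-1.17), Hmgcs1 (-0.93) and Sqle (-0.78). Among genes of signalling pathways, the value was above 0 for Nr6a1 (2.53), Etv5 (2.21), Ret (1.90), Igfbp5 (1.88), Fst (1.84), Il17rd (1.69), Shh (1.63) and Gfra3 (0.89). It was below 0 for Igfbp3 (-1.81). Among neural and proneural genes, the value was above 0 for Ndnf (1.67), Rfx4 (1.38), Gadd45g (1.30), Neurog2 (1.10), Neurog3 (0.83) and Ccnd2 (0.55). It was below 0 for Sox1 (-1.92), Dync1i1 (-1.74), Map2 (-1.74) and Tshz1 (-1.27). Of the remaining genes named, it was above 0 for Selenop (2.10) and Slc2a1 (0.63) and below 0 for Car8 (-1.24), Cd40 (-1.67), Cd83 (-1.94), Fat4 (-1.10), Has2 (-1.27), Llgl2 (-1.0), Lmo2 (-1.54) and Scara5 (-2.98).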

How the results depend on the processing

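No named gene reversed its called direction under the alternatives run, and lower genes outnumbered higher ones in the total under each. The balance within a list could change. Apical junction and actomyosin genes had 3 higher and 2 lower members, but 3 and 5 with the replicate block. Some list medians changed sign without open replicates 1 and 2, among them notochord (0.24 to -0.08) and glycolysis (0.13 to -0.16). The count of genes past the threshold, 1139 (367 higher and 772 lower), was 2222 (729 and 1493) with the replicate block, 3423 (1344 and 2079) with array weights, 1765 (584 and 1181) with the 3-prime minus 5-prime value as covariate, 603 (219 and 384) without open replicates 1 and 2, and 454 (180 and 274) with a size of at least 1. Leaving out 1 array at a time gave 789 to 1531 genes (260 to 507 higher, 527 to 1024 lower), with the lowest count without open replicate 1 and the highest without open replicate 3. It stayed within 1.5 times the main count under the 9 other settings, from 908 with the E9.5 arrays alone to 1175 with median centring. The share of called genes that were lower, 67.8%, was 60.9% after quantile normalization, 71.3% with median centring, 60.7% with array weights, 63.7% without open replicates 1 and 2, 60.4% at a size of at least 1, and 64.2% to 71.6% with 1 array left out. The 167 genes with a stage difference became 452 with the replicate block, 297 with the covariate and 72 without open replicates 1 and 2. Array weights gave open replicate 1 a weight of 6.28 and open replicate 3 a weight of 0.314. The cause of these changes was not tested. With the replicate block, within stage, all 1139 genes called stayed past the threshold; with the block across stages 1155 were called and 1055 of the 1139 stayed. Of 82 genes named or chosen by the naming rule that were not past the threshold, 28 passed under at least 1 alternative, 16 of them with array weights. With array weights Sox3 had 0.91 (adjusted p = 0.0407), Vangl2 1.03 (0.00259), Myh9 -0.51 (0.0242), Cfl1 -0.19 (0.0342) and Pkp3 0.41 (0.0168). Of 221 named genes past the threshold, 161 stayed past it under all 20 alternatives but the size limit.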

Other observations

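The genes in this section were chosen after their values were seen. Several desmosome genes, which build the adhesive plaques of epithelia, were lower in closed tissue. Desmoplakin, Dsp, read 10.18, 10.02 and 9.41 on the open arrays and 8.44, 8.03 and 7.40 on the closed arrays at E9.5, a difference of -1.91 (SE 0.31, adjusted p = 0.0018) by limma. Pkp2 (-0.99, SE 0.18), Dsc2 (-1.14, SE 0.16) and Dsg2 (-0.92, SE 0.18) were lower too, while Jup, Pkp1 and Pkp3 differed by -0.22, 0.04 and 0.26 and did not pass. Without open replicates 1 and 2, Dsc2 kept its call (adjusted p = 0.0286), and Dsp (0.0974), Pkp2 (0.128) and Dsg2 (0.132) did not. Bnc1 and Ripk4, a transcription factor and a kinase of stratified epithelia, fell by 2.54 and 2.07 (SE 0.22 and 0.23, Bnc1 to background) and kept the call there (0.00176 and 0.00657). The 20 tested keratins had 0 higher and 0 lower members by limma.

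Ret, the signalling receptor for the GDNF family, read 5.24, 5.19 and 5.75 on the open arrays and 8.71, 8.31 and 8.43 on the closed arrays (difference 3.09, SE 0.20), and its co-receptor gene Gfra3 6.46, 6.58 and 6.50 against 8.63, 8.63 and 8.71 (difference 2.15, SE 0.11). The co-receptor gene Gfra2 and the ligand gene Nrtn differed by 0.09 and 0.02. Ackr3, which with Cxcr4 binds the chemokine Cxcl12, read 6.93, 7.42 and 7.56 on the open arrays and 8.93, 8.95 and 9.26 on the closed arrays (difference 1.75, SE 0.17), and Cxcl12 itself differed by 0.12 (adjusted p = 0.7). Genes of insulin-like growth factor binding proteins lay in both directions: Igfbp3 read 8.72, 8.61 and 8.59 on the open arrays and 6.53, 6.53 and 6.24 on the closed arrays (difference -2.20, SE 0.14) and Igfbp5 8.35, 7.91 and 8.36 against 9.87, 10.02 and 9.86 (difference 1.71, SE 0.19), Igf1r fell by 0.88 (SE 0.10), and Igfbp4 differed by 0.16. The teashirt zinc finger genes Tshz1 (1.54, SE 0.12), Tshz2 (0.90, SE 0.16) and Tshz3 (2.01, SE 0.24) were all higher in closed tissue, Tshz2 with adjusted p = 0.149 without open replicates 1 and 2. Some genes best known from neurons were lower: Map2, a dendrite protein, read 6.27, 6.53 and 6.62 on the open arrays and 4.88, 4.68 and 4.73 on the closed arrays (difference -1.71, SE 0.16), and the dynein chain gene Dync1i1 8.05, 8.49 and 8.16 against 6.40, 6.42 and 6.61 (difference -1.76, SE 0.14). Cd83 and Cd40, known as immune cell surface proteins, fell by 2.70 and 1.89 (SE 0.14 and 0.15).

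Among symbol families, Sox genes had 5 higher and 0 lower of 16 tested, against 2.75% higher and 5.79% lower of all tested genes. Zinc finger Zfp genes had 4 and 10 of 277, solute carriers 5 and 20 of 247, and Tmem genes 1 and 10 of 174. The median differences of Sox, Zfp, solute carrier and Tmem genes were 0.36, -0.08, -0.01 and -0.01. Without open replicates 1 and 2 they were 0.31, -0.09, -0.02 and -0.07. With the replicate block Zfp genes had 6 and 26, solute carriers 10 and 35 and Tmem genes 7 and 18. In that fit 5.46% of all tested genes were higher and 11.2% lower. Proteasome genes (45), mitochondrial ribosome genes (73) and tRNA synthetase genes (15) had none past the threshold in either direction by limma.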
